A study of Rattus norvegicus with 27 samples.

Results

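DNA replication and S-phase genes were followed through a culture model of Schwann cell differentiation and its reversal. The members were 36 genes picked by name for their place in DNA replication or in S phase, and they were read from the cell mRNA table. Of the 36, 35 had a row among the 17315 genes of that table, and all 35 passed the filter on low counts which left 10372 genes to test. No row carried the name Chaf1a, so that subunit of the histone chaperone CAF-1 has no value here.

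The cells were commercial primary rat Schwann cells, the glia that wrap peripheral axons, at passages 3 to 5, and each of 3 stages had 3 libraries of cell mRNA. Undifferentiated cells had received no dibutyryl-cAMP (dbcAMP, a cell-permeable form of the second messenger cAMP), and the sources used here give no other detail of their medium. Differentiated cells had been kept overnight in DMEM with 1% exosome-depleted serum and then for 72 h in that medium with 1 mM dbcAMP. Dedifferentiated cells had gone through the same 72 h of dbcAMP and then had 72 h without it, in a complete medium with 10% exosome-depleted serum, forskolin (an activator of adenylyl cyclase) and 10 ng/mL neuregulin 1, a Schwann cell growth factor. Serum, growth factor, forskolin and time in culture changed together with dbcAMP, so their parts cannot be told apart. Withdrawal below means the change from dbcAMP to that complete medium with forskolin. It does not mean a loss of cAMP signal, which was not measured. Libraries are named below by stage and by the replicate number of their titles. The titles call them biological replicates, but nothing says that they came from separate cultures or animals, so p-values measure the spread between these libraries, which may be partly technical.

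DNA replication starts at origins that the origin recognition complex marks and that Cdc6 and Cdt1 load with the MCM2-7 ring, the core of the replicative helicase. Cdc45 and the GINS complex activate the ring in S phase, polymerases then copy both strands behind it, and a sliding clamp, its loader, a nuclease and a ligase complete the lagging strand. Many of these genes are known targets of E2F factors and are transcribed mainly in cells that are passing from G1 into S phase. Cultured rat Schwann cells are known to divide when cAMP elevation is combined with a growth factor such as neuregulin, and cAMP elevation without it is the usual way to bring them to express myelin genes.

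The cell libraries held 10058735 to 16212278 estimated counts and 11282 to 11833 detected genes, so that 3 counts, taken as the floor of detection, corresponded to 0.185 to 0.298 CPM (the usual scaling of counts to the column total). The cells carried Schwann cell markers in every stage. Of 7 such markers 6 had a row, Foxd3 being the exception, and their summed level was 4140 to 4440 CPM in undifferentiated, 7390 to 9820 CPM in differentiated and 14700 to 17900 CPM in dedifferentiated libraries. Sox10, the transcription factor that defines the lineage, averaged 1340, 1040 and 1460 CPM in that order of stages. The 6 myelin genes, all with a row, summed to 1090 to 1200, 9240 to 15000 and 13300 to 20700 CPM. Fibroblast markers (8 of 8 with a row, Lum at 0 throughout) summed to 24400 to 29100, 12000 to 15700 and 16000 to 19600 CPM. That sum was nearly all from the collagen genes Col1a1 and Col1a2, and Dcn and Pdgfra reached at most 0.884 CPM, Thy1 1.92 CPM and Fbln1 5.12 CPM in any library. Macrophage markers summed to at most 5.09 CPM in any library, with Aif1 and Adgre1 at 0, and endothelial markers to at most 22.5 CPM, with Cdh5 at 0. Perineurial markers, with Krt19 at 0, summed to 132 to 178, 233 to 333 and 279 to 352 CPM. The part of these other cell types in the results below was not tested. In bulk RNA, a change in the share of cells in S phase cannot be told apart from a change in RNA per cell.

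Among the members, rises outnumbered falls in differentiated against undifferentiated cells. With edgeR's quasi-likelihood test and Benjamini-Hochberg adjustment over all tested genes, 20 of 35 members rose, 3 fell (Cdt1, Prim1 and Lig1) and 12 did not pass the threshold of 0.05. Over all tested genes 31.7% rose and 27.9% fell in the same comparison, which is the background for these counts. The median log2 change of the members was 0.68, with a range of -1.40 to 3.46, and that of all tested genes was 0.05. In 22 members every differentiated library lay above every undifferentiated one, and in 3 every one lay below, against 38.9% and 27.4% of all tested genes. Of the members called, 14 rose and 1 fell by more than 2-fold. With each library left out in turn 14 to 21 members rose, and 17 of the 23 calls held throughout. The lowest count was without differentiated replicate 3, in a fit where 28% of all tested genes rose. With the replicate number as a block, 22 rose and 3 fell. The members Orc1, Cdc6, Mcm5, Gins1, Mcm10 and Rrm2, had under 10 counts in some library, so their folds are the least precise. The spans of 10 members meet another gene on GRCr8, Gins2 (Gse1), Fen1 (Tmem258), Lig1 (Zswim9), Rrm2 (Cys1) and Uhrf1 (Arrdc5) among them, and whether counting used strand is not given in the sources used here, so reads could be shared there.

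After dbcAMP withdrawal the direction turned. Of the 35 members 24 fell from differentiated to dedifferentiated cells, 1 rose (Cdt1) and 10 were not called, against 23.2% of all tested genes that fell and 23.2% that rose. The median log2 change was -0.61 for the members and -0.01 for all tested genes. Every dedifferentiated library lay below every differentiated one in 22 members and above in 1, against 30.2% and 28.3% of all tested genes. This comparison shares its differentiated libraries with the one before, so the turn is not independent of the rise. One library weighed on it: without differentiated replicate 3 the count that fell was 10 and not 24 (18.8% of all tested genes fell in that fit), and the 14 calls lost were those of Orc1, Cdc6, Mcm5, Mcm6, Mcm7, Mcm10, Pole, Rfc4, Rpa2, Rrm2, Tyms, Dut, Tk1 and Brca1. Without dedifferentiated replicate 1 or dedifferentiated replicate 2 it was 14. Both of those fits lost the calls of Cdc6, Mcm6, Mcm10, Pole, Rfc4, Rpa2, Rrm2, Dut and Brca1. That of Tyms was also lost in the first of them and that of Rfc5 in the second. The calls of Orc6, Cdt1, Mcm2, Mcm3, Cdc45, Pcna, Fen1, Uhrf1, Chaf1b and E2f1 held with each of the 9 libraries left out in turn.

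Dedifferentiated and undifferentiated cells differed in few members. Pcna and Rpa2 were higher, Prim1 and Mcm6 were lower, and 31 were not called, against 16.1% of all tested genes that were higher and 13.3% that were lower. The median log2 difference was 0.17 for the members and 0.02 for all tested genes. All libraries were higher in 9 members and lower in 5, against 26.8% and 17.1% of all tested genes. A missed threshold does not make the 2 stages alike: in 18 of the 31 uncalled members the 95% interval stayed within 1 on the log2 scale on both sides, and in the other 13, Orc1, Cdc6, Mcm5 and Rrm2 among them, it reached past a 2-fold difference.

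**Figure D1:**
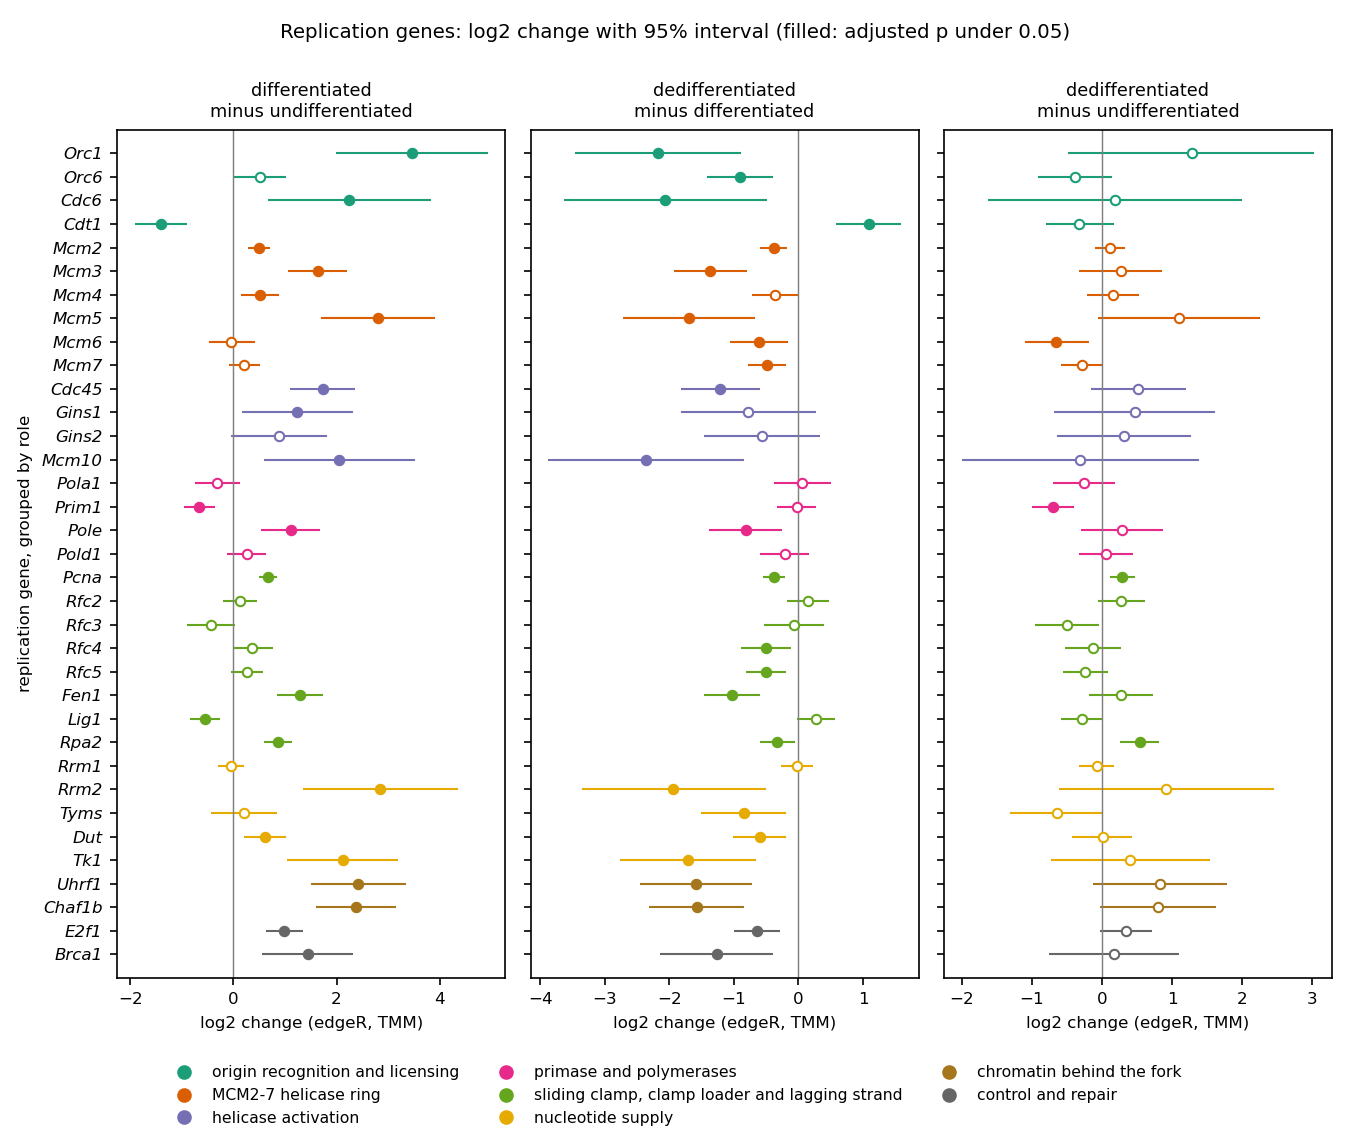
Log2 change of each of the 35 members with a row in the 3 stage comparisons (x axis, edgeR with TMM scaling, a separate scale in each panel), by role; points are estimates, bars 95% intervals, and filled points passed the adjusted p of 0.05. The left panel has 20 filled points to the right of 0 and 3 to the left, the middle panel 24 to the left and 1 to the right, and the right panel 4 in all.

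Read across the 3 comparisons, 16 members shared 1 course: higher in differentiated than in undifferentiated cells, lower again after withdrawal, and not called between the end and the start. They were Orc1, Cdc6, Mcm2, Mcm3, Mcm5, Cdc45, Mcm10, Pole, Fen1, Rrm2, Dut, Tk1, Uhrf1, Chaf1b, E2f1 and Brca1. That is 45.7% of the members, and 12.6% of all tested genes had this combination of calls. A single library moved this count most: without differentiated replicate 3, 7 members kept the course (Mcm2, Mcm3, Cdc45, Fen1, Uhrf1, Chaf1b and E2f1), 20% against 10.2% of all tested genes. Without dedifferentiated replicate 1 it was 10 members, 28.6% against 11.7%. With the replicate number as a block Mcm5 and Uhrf1 were also called higher at the end than at the start, so that they left the course, and Orc6 and Mcm4 joined it. Pcna and Rpa2 rose, fell and ended above the start. Orc6, Mcm7, Rfc4, Rfc5 and Tyms were called only on withdrawal, and Gins2, Pola1, Pold1, Rfc2, Rfc3 and Rrm1 were called in none of the comparisons.

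The promoters of the members are shown here because E2F factors are known to act on many of them. In differentiated cells 20 of 35 members rose, 3 fell and 12 were not called. RefSeq windows on the rat build GRCr8, from 250 bases before to 50 after the transcription start, were at hand for 31 of the 36 members (none for Orc1, Cdc6, Mcm4, Rrm2 and E2f1). The members without a window all rose in differentiated cells, so the shares by call below are incomplete for members that rose. Both strands were searched for an E2F-type sequence (TTTCCCGC, TTTCGCGC, TTTGCCGC or TTTGGCGC, overlapping matches allowed), for the CCAAT box, the letters CCAAT, and for the CHR element, the letters TTTGAA. An E2F-type match was present in 14 of 31 members (45.2%), against 4.3% of the 7956 tested genes with such a window. CCAAT was present in 20 of 31 (64.5%, against 38.3%) and TTTGAA in 2 of 31 (6.45%, against 11.4%). Of the 24 E2F-type matches, 11 began within the 100 bases before the start and 6 after it. Members that rose and members that did not both held matches: an E2F-type match was found in 7 of 15 members that rose in differentiated cells (46.7%), in 5 of 12 not called (41.7%) and in 2 of 3 that fell. The windows of 4 genes show this, with E2F-type and CCAAT matches in capitals and each sequence written 5′ to 3′ along its gene. Mcm5 rose and has 3 E2F-type matches and 3 CCAAT boxes, Mcm6 has 2 of each and was not called, Cdt1 has 2 E2F-type matches and fell, and Fen1 has neither and rose.
Mcm5 promoter, chr19:13488563-13488862, plus strand: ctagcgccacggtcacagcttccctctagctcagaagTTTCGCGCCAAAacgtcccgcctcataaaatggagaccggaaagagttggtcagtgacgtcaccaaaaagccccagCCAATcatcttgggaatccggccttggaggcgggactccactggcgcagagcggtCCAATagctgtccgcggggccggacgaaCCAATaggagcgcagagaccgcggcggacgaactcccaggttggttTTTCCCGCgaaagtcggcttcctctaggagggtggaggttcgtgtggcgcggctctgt
Mcm6 promoter, chr13:42404303-42404602, minus strand: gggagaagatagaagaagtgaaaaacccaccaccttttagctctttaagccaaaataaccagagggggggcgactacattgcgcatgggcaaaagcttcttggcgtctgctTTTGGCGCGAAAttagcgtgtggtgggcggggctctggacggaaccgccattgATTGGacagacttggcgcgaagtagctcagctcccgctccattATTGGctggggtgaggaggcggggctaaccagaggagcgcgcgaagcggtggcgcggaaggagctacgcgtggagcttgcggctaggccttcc
Cdt1 promoter, chr19:67528999-67529298, plus strand: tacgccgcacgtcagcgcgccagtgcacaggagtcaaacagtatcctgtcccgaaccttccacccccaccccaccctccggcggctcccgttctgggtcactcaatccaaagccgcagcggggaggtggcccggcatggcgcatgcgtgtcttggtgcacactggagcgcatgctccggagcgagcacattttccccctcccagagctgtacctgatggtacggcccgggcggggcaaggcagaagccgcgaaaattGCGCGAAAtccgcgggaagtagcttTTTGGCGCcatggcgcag
Fen1 promoter, chr1:216274347-216274646, minus strand: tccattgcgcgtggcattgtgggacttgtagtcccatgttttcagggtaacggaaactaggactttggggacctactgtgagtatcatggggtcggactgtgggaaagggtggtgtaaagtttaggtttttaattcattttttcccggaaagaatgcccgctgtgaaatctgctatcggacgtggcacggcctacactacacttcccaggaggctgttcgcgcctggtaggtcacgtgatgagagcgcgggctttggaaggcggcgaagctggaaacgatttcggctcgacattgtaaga
A match describes these letters and is not evidence of binding, and a window without one says only that the letters are not in it.

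**Figure D2:**
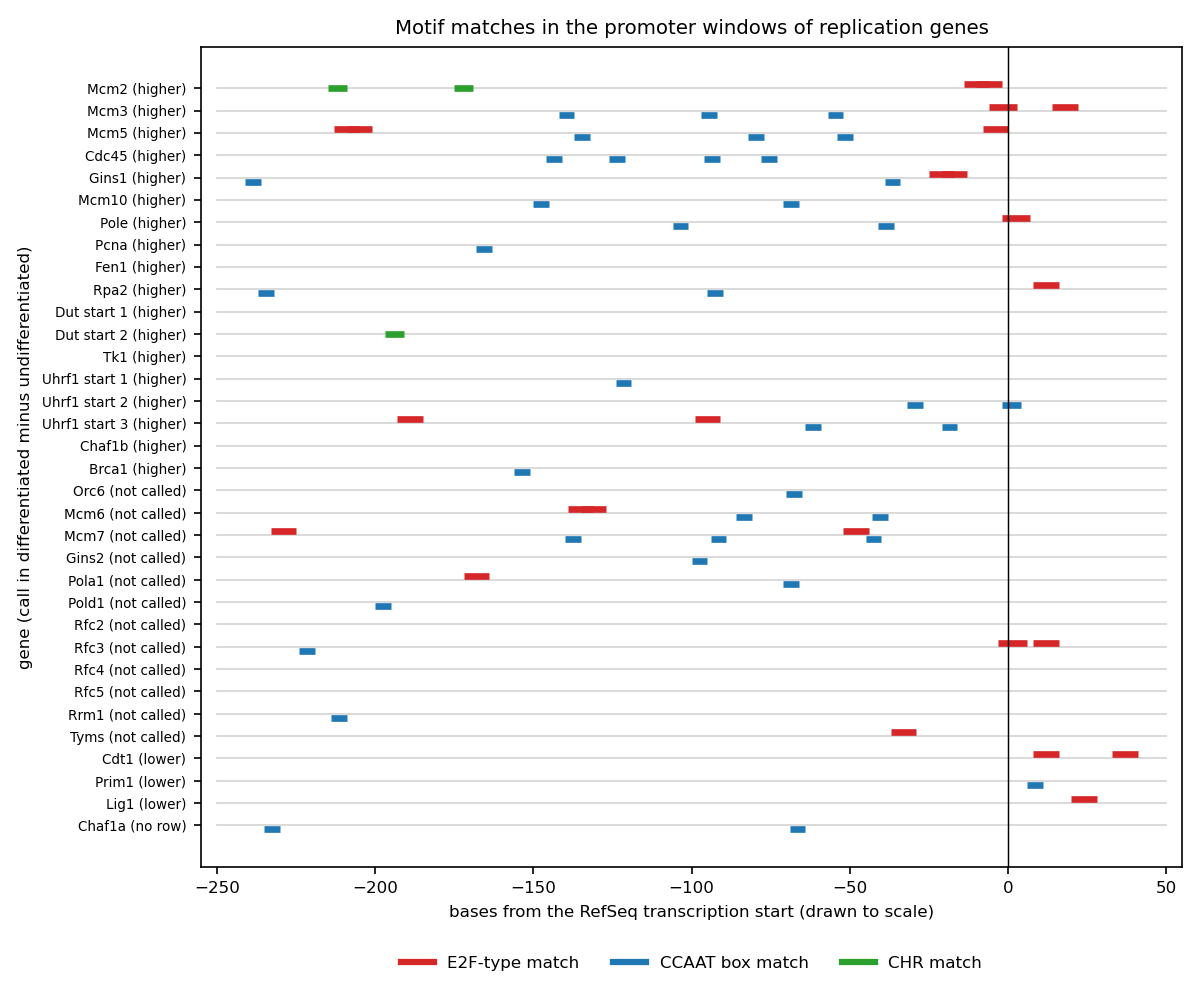
Positions of E2F-type (red), CCAAT (blue) and CHR (green) matches in the promoter windows of the 31 members that had one, in bases from the RefSeq start (x axis), with the call in differentiated against undifferentiated cells beside each gene; a line is 1 window, and Dut and Uhrf1 have several starts. Red marks are spread over genes that rose, were not called and fell.

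Among the licensing genes, which prepare origins in G1, 2 of 4 rose in differentiated cells and 1 fell. Orc1, the largest subunit of the origin recognition complex, stood at 0, 0.192 and 0.458 CPM in undifferentiated replicates 1, 2 and 3, at 1.92, 2.01 and 4.26 CPM in the differentiated ones and at 0.424, 0.497 and 0.827 CPM in the dedifferentiated ones. All differentiated libraries were above all others. The rise was 11.0-fold (log2 change 3.46 ± 0.67 SE, edgeR adjusted p = 0.0011), a size that rests on only 9 counts in the undifferentiated libraries together, and the fall on withdrawal was 4.54-fold (adjusted p = 0.011). Cdc6, the ATPase that brings the MCM ring to the origin, read 0, 0.673 and 1.44 CPM, then 2.21, 2.39 and 6.29 CPM, then 0.763, 0.994 and 0.827 CPM. Here too the differentiated libraries did not overlap the others, although replicate 3 was far above its neighbours. The rise was 4.76-fold (adjusted p = 0.0191), and it was not called without differentiated replicate 3 (log2 change 1.60, adjusted p = 0.103) or without undifferentiated replicate 2 (2.18, 0.0564).

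Cdt1, the partner of Cdc6 in loading the ring, went the other way. It measured 28, 23.1 and 24.9 CPM in undifferentiated, 7.59, 7.95 and 14.3 CPM in differentiated and 22.6, 17.3 and 23.2 CPM in dedifferentiated replicates 1 to 3. The differentiated libraries were the lowest, with no overlap with either other stage, while the first and last stages overlapped. Cdt1 fell 2.65-fold (log2 change -1.40 ± 0.23 SE, edgeR adjusted p = 0.000335) and rose 2.12-fold on withdrawal (1.09 ± 0.23, adjusted p = 0.00292). It was the single member called lower, then higher, and not called between the end and the start. Of all tested genes 12.2% had that combination of 3 calls. Orc6, a small subunit of the origin recognition complex, read 5.32, 4.90 and 6.61 CPM, then 8.47, 7.25 and 9.5 CPM, then 3.90, 3.48 and 5.94 CPM. Its differentiated libraries lay above the rest, but the rise missed the threshold (log2 change 0.52, 95% interval 0.02 to 1.02, adjusted p = 0.0704), and it passed with the replicate number as a block (0.53, adjusted p = 0.0297). The fall on withdrawal was called (1.87-fold, adjusted p = 0.00921).

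The 6 subunits of the MCM2-7 ring, which assemble in equal numbers, did not change by equal amounts. In differentiated cells 4 of 6 rose and none fell at the threshold, with log2 changes from -0.04 to 2.80. Mcm5 stood at 0.403, 3.17 and 3.53 CPM in undifferentiated, 10.0, 19.0 and 22.9 CPM in differentiated and 4.41, 4.97 and 6.32 CPM in dedifferentiated replicates 1 to 3. The 3 stages did not overlap at all. Mcm5 rose 6.97-fold (log2 change 2.80 ± 0.50 SE, edgeR adjusted p = 0.000645) and fell 3.26-fold (adjusted p = 0.0117), and the end against the start was not called (log2 difference 1.10, 95% interval -0.06 to 2.25), although it was with the replicate number as a block (1.22, adjusted p = 0.0312). Mcm3 read 7.74, 9.42 and 8.64 CPM, then 16.4, 29.7 and 37.5 CPM, then 9.24, 9.94 and 12.9 CPM, so that only the differentiated libraries stood apart. Its rise was 3.11-fold (adjusted p = 0.000286) and its fall 2.58-fold (adjusted p = 0.00145).

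Mcm6 did not follow its ring partners upward. It measured 27.4, 30.3 and 31.3 CPM in undifferentiated, 20.9, 27.7 and 41.9 CPM in differentiated and 17.4, 20.5 and 20.9 CPM in dedifferentiated replicates 1 to 3. The differentiated libraries spanned both sides of the undifferentiated ones, and all dedifferentiated libraries were below them, the highest of them only just below differentiated replicate 1. Between the first stages the log2 change was -0.04 (95% interval -0.48 to 0.41, edgeR adjusted p = 0.89), and the dedifferentiated level was lower than the undifferentiated one by 1.56-fold (adjusted p = 0.0372), a call that was lost when any single library of those 2 stages was left out (adjusted p from 0.0529 to 0.096). The 1.53-fold fall on withdrawal (adjusted p = 0.0316) was likewise lost without differentiated replicate 3 or any 1 dedifferentiated library (adjusted p from 0.0626 to 0.125). Mcm2 and Mcm4 rose by smaller factors, 1.41-fold and 1.43-fold, from 36.6 ± 1.91 to 53.9 ± 7.02 CPM and from 28.8 ± 5.00 to 43.0 ± 10.5 CPM (mean ± SD, n = 3). The Mcm4 call was lost without differentiated replicate 3 (log2 change 0.31, adjusted p = 0.0906) or undifferentiated replicate 2 (0.37, 0.0992). Mcm7 was called only on withdrawal, when it fell 1.40-fold to 60.1 ± 9.69 CPM.

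The activators of the ring rose as well, 3 of 4 in differentiated cells. Cdc45, which joins MCM2-7 and GINS in the moving helicase, read 0.806, 1.15 and 1.31 CPM in undifferentiated, 3.46, 3.86 and 4.07 CPM in differentiated and 1.87, 1.59 and 1.43 CPM in dedifferentiated replicates 1 to 3. The differentiated libraries stood well above the rest. Every dedifferentiated library was above every undifferentiated one, but that difference was not called (log2 difference 0.52, 95% interval -0.16 to 1.20). Cdc45 rose 3.31-fold (log2 change 1.73 ± 0.29 SE, edgeR adjusted p = 0.000399) and fell 2.31-fold (adjusted p = 0.00489). Mcm10, a factor needed to set the helicase in motion, was far more uneven, at 0.161, 0.961 and 2.03 CPM, then 2.28, 3.47 and 8.27 CPM, then 0.509, 0.795 and 1.35 CPM. In each stage it was lowest in replicate 1 and highest in replicate 3. Its rise of 4.15-fold (adjusted p = 0.0205) was lost without differentiated replicate 3 (log2 change 1.36, adjusted p = 0.12) or undifferentiated replicate 2 (1.96, 0.0621).

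The GINS subunits were measured at few counts. Gins2 read 1.53, 2.02 and 2.68 CPM in undifferentiated, 3.98, 2.86 and 5.18 CPM in differentiated and 1.61, 1.79 and 4.59 CPM in dedifferentiated replicates 1 to 3. The differentiated libraries lay just above the undifferentiated ones, and dedifferentiated replicate 3 reached among them. The rise was not called (log2 change 0.88, 95% interval -0.04 to 1.81, edgeR adjusted p = 0.0905) and passed with the replicate number as a block (0.90, adjusted p = 0.0302). Gins1 rose 2.37-fold from 0.859 ± 0.573 to 2.14 ± 0.720 CPM (mean ± SD, n = 3, edgeR adjusted p = 0.047), a call next to the threshold that was lost in 7 of the 9 fits with 1 library left out (adjusted p of the lost calls from 0.0643 to 0.17), the exceptions being undifferentiated replicate 3 and differentiated replicate 2.

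The polymerase group was divided, with 1 of 4 higher and 1 lower in differentiated cells. Pole, the catalytic subunit of the leading-strand polymerase epsilon, stood at 5.56, 5.77 and 7.46 CPM in undifferentiated, 11.1, 10.9 and 20.4 CPM in differentiated and 7.71, 6.56 and 9.40 CPM in dedifferentiated replicates 1 to 3. No differentiated library overlapped with the others. Pole rose 2.15-fold (log2 change 1.11 ± 0.26 SE, edgeR adjusted p = 0.00361) and fell 1.77-fold (adjusted p = 0.0224). The call of the fall was lost without differentiated replicate 3 or without dedifferentiated replicate 1 or 2. Prim1, the catalytic subunit of primase, which lays down the RNA primers, read 28.4, 28.4 and 29.6 CPM, then 15.2, 19.6 and 22.1 CPM, then 16.5, 20.0 and 18.7 CPM. It fell in differentiated cells and stayed low: all undifferentiated libraries were above all 6 others. The fall was 1.58-fold (adjusted p = 0.00167), the change on withdrawal was -0.03 on the log2 scale (95% interval -0.34 to 0.27), and the end was 1.62-fold below the start (adjusted p = 0.00348).

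Pola1 and Pold1, the catalytic subunits of polymerases alpha and delta, were not called in any comparison. Pola1 read 15.4, 20.4 and 20.5 CPM in undifferentiated, 10.7, 16.6 and 20.0 CPM in differentiated and 15.6, 16.0 and 17.2 CPM in dedifferentiated replicates 1 to 3. Pold1 read 11.8, 15.5 and 17.5 CPM, then 14.4, 21.8 and 20.0 CPM, then 16.7, 14.8 and 16.6 CPM. For both genes the stages overlapped. In differentiated against undifferentiated cells the log2 change was -0.31 for Pola1 (95% interval -0.75 to 0.13, edgeR adjusted p = 0.199) and 0.26 for Pold1 (-0.12 to 0.64, adjusted p = 0.211).

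Of the 8 genes of the sliding clamp, the clamp loader and the lagging strand, 3 rose in differentiated cells and 1 fell. Fen1, the nuclease that trims the flaps of Okazaki fragments, stood at 7.90, 9.61 and 10.5 CPM in undifferentiated, 18.6, 32.5 and 21.0 CPM in differentiated and 12.1, 11.9 and 10.8 CPM in dedifferentiated replicates 1 to 3. Here differentiated replicate 2, not 3, was the highest, and the 3 stages were in full order without overlap. Fen1 rose 2.46-fold (log2 change 1.30 ± 0.20 SE, edgeR adjusted p = 0.000258) and fell 2.04-fold (adjusted p = 0.00184). Rpa2, part of the protein that coats single-stranded DNA, read 10.5, 12.8 and 13.9 CPM, then 21.7, 24.0 and 24.7 CPM, then 17.0, 19.0 and 19.7 CPM. The dedifferentiated libraries lay between the other stages and touched neither. Its rise was 1.82-fold (adjusted p = 0.000146), and the level after withdrawal was still 1.45-fold above the start (adjusted p = 0.00905). The fall between those was 1.25-fold at an adjusted p of 0.048, and it was lost in 8 of the 9 fits with 1 library left out (adjusted p of the lost calls from 0.0533 to 0.147), all but that without undifferentiated replicate 1.

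Lig1, the ligase that seals Okazaki fragments, fell where its partner Fen1 rose. It measured 64.2, 63.4 and 64.8 CPM in undifferentiated, 36.8, 43.4 and 56.9 CPM in differentiated and 50.6, 51.3 and 62.0 CPM in dedifferentiated replicates 1 to 3. All undifferentiated libraries were above all others, and the 2 later stages overlapped. The fall was 1.46-fold (log2 change -0.55 ± 0.14 SE, edgeR adjusted p = 0.00535), and the change on withdrawal was not called (0.27, 95% interval -0.03 to 0.57). Without differentiated replicate 3 that last change passed the threshold (0.45, adjusted p = 0.0121). Pcna, the clamp itself, went from 54.2 ± 0.566 to 90.4 ± 5.72 and then to 68.8 ± 4.51 CPM (mean ± SD, n = 3), a 1.60-fold rise (adjusted p = 2.79e-05) after which it ended 1.23-fold above the start (adjusted p = 0.0171). That last call was lost without replicate 2 or 3 of either stage, with adjusted p from 0.0599 to 0.0712.

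None of the 4 measured members of the clamp loader was called in differentiated against undifferentiated cells. Rfc2 read 14.2, 16.7 and 14.5 CPM in undifferentiated, 14.1, 18.1 and 19.5 CPM in differentiated and 16.9, 21.5 and 18.7 CPM in dedifferentiated replicates 1 to 3. Rfc3 read 39.2, 25.4 and 27.2 CPM, then 21.7, 25.6 and 24.2 CPM, then 16.4, 27.4 and 23.7 CPM. Both overlapped between undifferentiated and differentiated cells, and undifferentiated replicate 1 stood above every other library in Rfc3. The log2 changes were 0.13 (95% interval -0.20 to 0.46) and -0.43 (-0.89 to 0.03), with edgeR adjusted p of 0.47 and 0.0983. Rfc4 and Rfc5 were called only on withdrawal, at 1.41-fold and 1.42-fold lower. Both of these calls were lost without single libraries, that of Rfc4 in 7 of the 9 fits (all but those without undifferentiated replicate 1 and differentiated replicate 1) and that of Rfc5 without replicate 2 of the differentiated (adjusted p = 0.0531) or dedifferentiated (0.061) stage.

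Of the genes of nucleotide supply 3 of 5 rose in differentiated cells. Ribonucleotide reductase makes the DNA building blocks from a large subunit, Rrm1, and a small one, Rrm2. Rrm2 stood at 0.483, 8.17 and 13.1 CPM in undifferentiated, 28.6, 54.7 and 82 CPM in differentiated and 6.78, 19.2 and 16.9 CPM in dedifferentiated replicates 1 to 3. The differentiated libraries were above all others, and the spread within each stage was wide, with replicate 1 the lowest in each. Rrm2 rose 7.22-fold (log2 change 2.85 ± 0.68 SE, edgeR adjusted p = 0.00412) and fell 3.82-fold (adjusted p = 0.0306), the latter call lost without any 1 of differentiated replicates 2 and 3 and the 3 dedifferentiated ones (adjusted p from 0.0531 to 0.115). Rrm1 read 58.3, 59.0 and 64.5 CPM, then 50.9, 61.0 and 71.5 CPM, then 64.4, 57.0 and 57.4 CPM, with all stages overlapping. Its log2 change in differentiated cells was -0.05 (95% interval -0.30 to 0.20, adjusted p = 0.724).

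Tk1, the thymidine salvage kinase, read 1.13, 5.00 and 5.04 CPM in undifferentiated, 9.58, 16.5 and 24.2 CPM in differentiated and 2.80, 5.96 and 6.47 CPM in dedifferentiated replicates 1 to 3. The first and last stages overlapped, and the differentiated libraries stood above both. Tk1 rose 4.33-fold (edgeR adjusted p = 0.00337) and fell 3.27-fold (adjusted p = 0.0133). Dut, which removes dUTP, rose 1.53-fold from 8.54 ± 1.20 to 13.6 ± 3.18 CPM (mean ± SD, n = 3, adjusted p = 0.0155), and that call was lost without differentiated replicate 3 (log2 change 0.41, adjusted p = 0.081). Tyms, thymidylate synthase, was called only on withdrawal, when it fell 1.80-fold to 2.97 ± 0.542 CPM (adjusted p = 0.0376), and that call was lost in 5 of the 9 fits with 1 library left out (adjusted p of the lost calls from 0.0531 to 0.16).

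Both measured genes that act on chromatin behind the fork rose in differentiated cells. Uhrf1, which guides maintenance methylation to newly copied DNA, stood at 1.29, 2.98 and 4.25 CPM in undifferentiated, 10.5, 14.7 and 22.9 CPM in differentiated and 3.31, 7.16 and 5.42 CPM in dedifferentiated replicates 1 to 3. Chaf1b, a subunit of CAF-1, read 0.806, 1.73 and 1.31 CPM, then 8.69, 5.02 and 6.97 CPM, then 1.95, 1.79 and 3.08 CPM. In both genes the differentiated libraries were above all others, and in Chaf1b replicate 1 was the highest of them. The rises were 5.35-fold for Uhrf1 (log2 change 2.42 ± 0.41 SE, edgeR adjusted p = 0.000492) and 5.20-fold for Chaf1b (2.38 ± 0.35, adjusted p = 0.000177). At the end Uhrf1 was not called against the start (log2 difference 0.83, 95% interval -0.13 to 1.79), and it was with the replicate number as a block (0.88, adjusted p = 0.0332). The falls were 3.01-fold (adjusted p = 0.00729) and 2.98-fold (adjusted p = 0.0029).

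E2f1, an activating E2F factor of the G1 to S transition, and Brca1, a repair and fork protection protein, also rose and fell. E2f1 read 9.35, 9.13 and 10.2 CPM in undifferentiated, 16.1, 18.7 and 24.7 CPM in differentiated and 13.6, 12.4 and 11.7 CPM in dedifferentiated replicates 1 to 3. Brca1 read 1.61, 3.36 and 3.40 CPM, then 3.90, 7.79 and 12.0 CPM, then 2.88, 2.78 and 3.99 CPM. The stages of E2f1 were in full order without overlap, while differentiated replicate 1 of Brca1 fell within the range of the dedifferentiated libraries. E2f1 rose 1.98-fold (edgeR adjusted p = 0.000397) and fell 1.57-fold (adjusted p = 0.0078). Brca1 rose 2.71-fold (adjusted p = 0.00962), a call lost without differentiated replicate 3 (log2 change 1.01, adjusted p = 0.0527). Its fall (log2 change -1.27, edgeR adjusted p = 0.0228) was not called without differentiated replicate 3 or without dedifferentiated replicate 1 or 2.

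**Figure D3:**
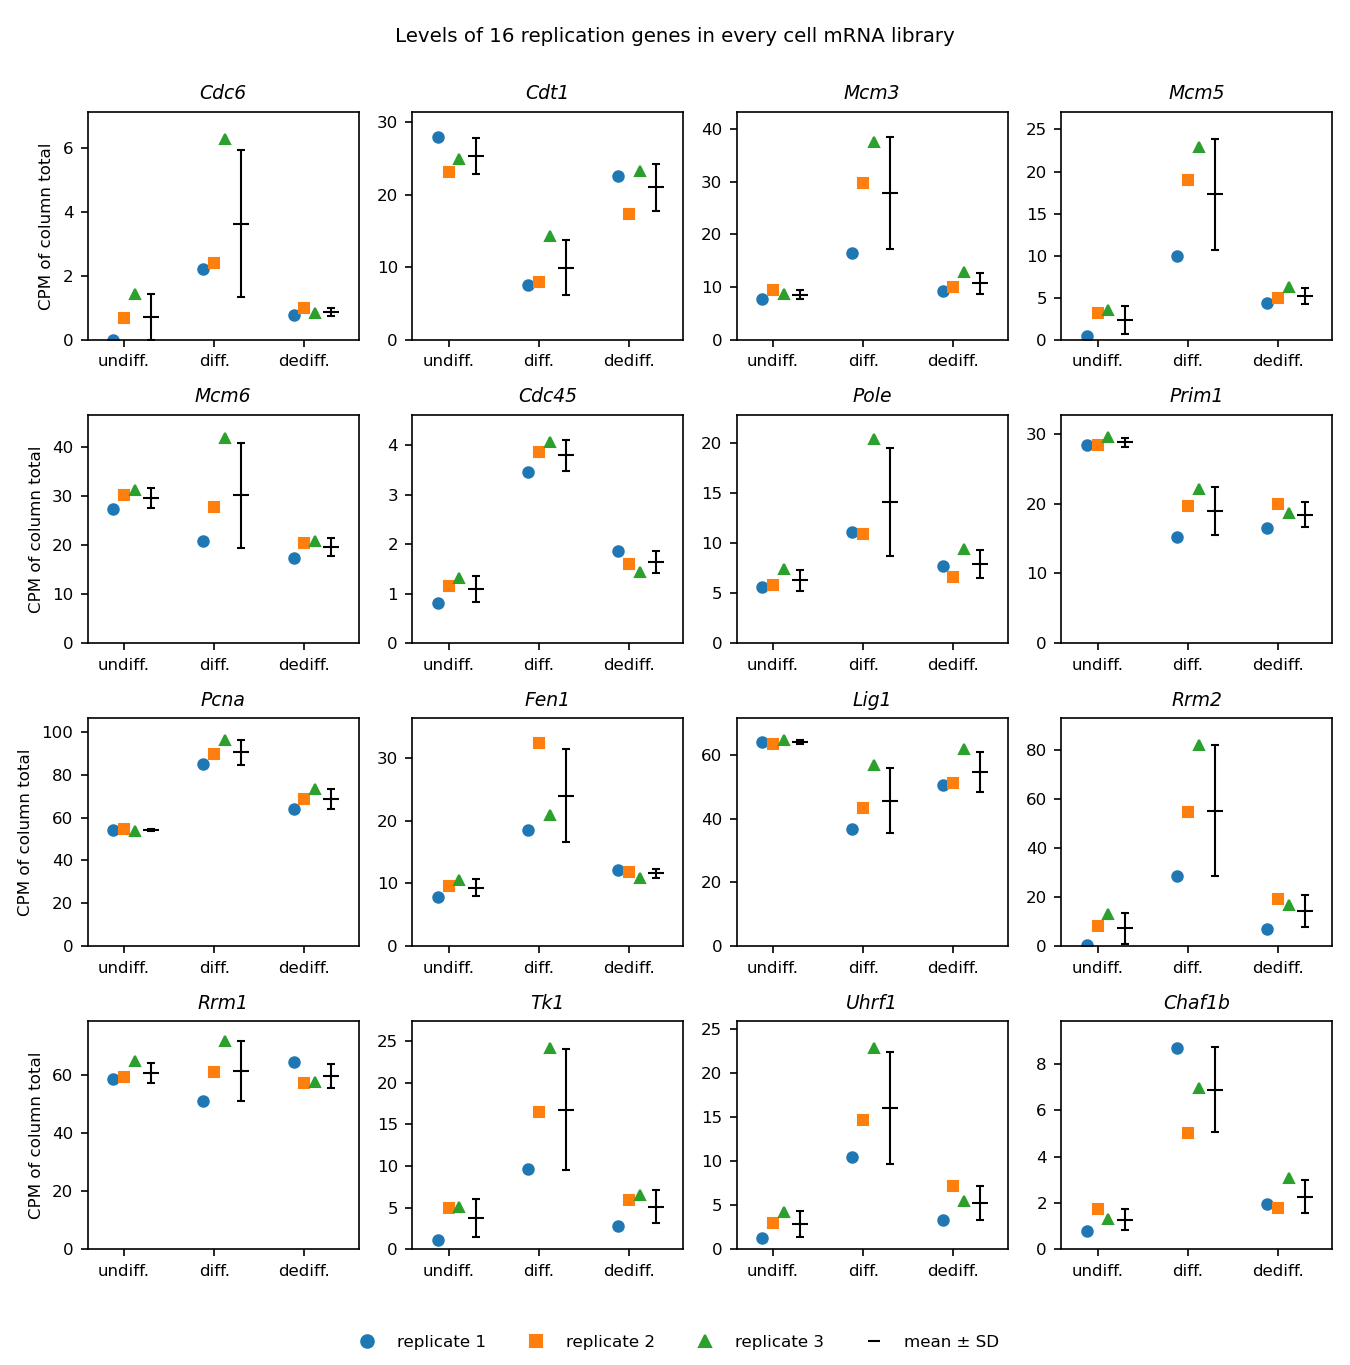
Level of 16 members in every cell mRNA library (y axis, CPM of the column total, a separate scale from 0 in each panel) by stage; symbols are libraries and bars mean ± SD of 3 libraries. Most panels peak in differentiated cells, Cdt1, Prim1 and Lig1 are highest in undifferentiated cells, and Mcm6 and Rrm1 overlap between the first 2 stages.

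Other subunits of the same machines, from a list of 73 further replication genes of which 64 were tested, give the members a setting. In differentiated cells 23 of the 64 rose and 9 fell (median log2 change 0.28), or 35.9% and 14.1% against 31.7% and 27.9% of all tested genes, so the share that rose was near the background. On withdrawal 5 rose and 20 fell (-0.33), or 7.81% and 31.2% against 23.2% and 23.2%. At the end 5 were higher and 8 lower than at the start (-0.01), or 7.81% and 12.5% against 16.1% and 13.3%. Within single complexes the calls were mixed. Of GINS, Gins1 and Gins3 (log2 change 1.66) rose, Gins4 (-0.81) fell and Gins2 was not called. Of polymerase epsilon, Pole and Pole2 (1.10) rose, while the histone-fold subunits Pole3 (-0.55) and Pole4 (-0.93) fell. Of polymerase delta, Pold2 (0.50) rose, Pold3 (-1.27) fell and Pold1 was not called. Of the clamp loader, the large subunit Rfc1 (0.51) rose, from 52.4 ± 9.03 to 78.2 ± 8.41 CPM (mean ± SD, n = 3), while Rfc2, Rfc3, Rfc4 and Rfc5 were not called. Of primase, Prim1 fell and Prim2 (0.66) rose. All these are differentiated against undifferentiated cells in the same edgeR fit, and differences between subunits were not tested. Pole3, Pole4 and Pold3 rose again on withdrawal, as did Rrm2b, the alternative small subunit of ribonucleotide reductase, and Cdk2, the kinase of cyclins E and A.

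The widest rises on that list were of Shmt1, an enzyme of one-carbon supply for thymidylate (log2 change 3.37 ± 0.33 SE, edgeR adjusted p = 7.61e-06), Clspn, the fork checkpoint adaptor claspin (2.85 ± 0.69, 0.00466), and E2f7, a repressive E2F (2.54 ± 0.77, 0.0153). In undifferentiated replicates 1, 2 and 3 Clspn read 0.161, 1.25 and 1.37 CPM and E2f7 0, 0.385 and 0.785 CPM. Replicate 1 was below the floor for both, so the sizes of these 2 rises are imprecise. The widest fall was that of Cdk2 (-1.62 ± 0.24, 0.000155), which measured 35.8 ± 8.96, 12.2 ± 2.95 and 20.0 ± 4.65 CPM (mean ± SD, n = 3) in the 3 stages. Its partner cyclin gene Ccne1 rose (2.19 ± 0.33, 0.000213). On withdrawal the widest falls were those of Shmt1 (-2.66), Ccne1 (-2.07) and Clspn (-1.80), and the count of 20 that fell was 9 without differentiated replicate 3, 12 without differentiated replicate 2 or without dedifferentiated replicate 1 or 2, and 13 without dedifferentiated replicate 3.

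Lists for the neighbouring phases of the cell cycle were set beside the members. Over all tested genes 31.7% rose and 27.9% fell in differentiated cells, and 23.2% rose and 23.2% fell on withdrawal. Between the end and the start 16.1% were higher and 13.3% lower. Of 23 tested genes of G2 and mitosis, 20 (87%) rose in differentiated cells and none fell (median log2 change 1.85), with Top2a at 3.04 and Ccnb1 at 2.88. In undifferentiated replicates 1, 2 and 3 Top2a read 0.242, 6.06 and 10.6 CPM and Ccnb1 0.242, 2.31 and 4.97 CPM. Replicate 1 was at the floor for both, so the sizes of these 2 rises are imprecise. On withdrawal 11 of the 23 (47.8%) fell and none rose (-1.17), and 1, Espl1 (4.35% of the list), was higher at the end than at the start. Of 11 tested G1 cyclins, their kinases and their inhibitors, 7 (63.6%) rose and 2 (18.2%) fell in differentiated cells (0.92). The largest of these rises were Ccnd1, cyclin D1 (3.99), and the inhibitors Cdkn1b (2.64) and Cdkn1a (2.34), whereas Cdkn2a (-0.74) and Cdkn2b (-1.12) fell. On withdrawal 7 of the 11 (63.6%) fell and 1, Cdkn2b (9.09%), rose (-0.99). At the end 4 (36.4%) were higher than at the start, among them Ccnd1 (1.85) and Cdkn1b (1.53), and 3 (27.3%) were lower, Cdk4, Cdkn1c (-0.77) and Cdkn2a.

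**Figure D4:**
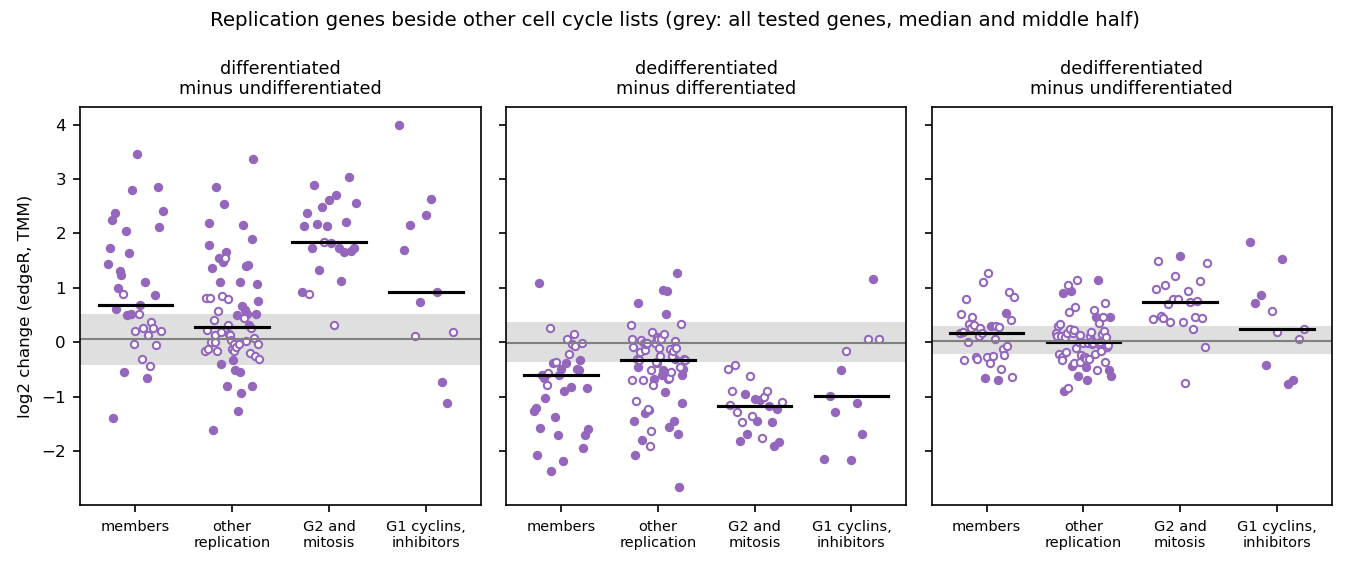
Log2 change (y axis, edgeR with TMM scaling) of the 35 members, 64 other replication genes, 23 G2 and mitosis genes and 11 G1 cyclin and inhibitor genes in the 3 comparisons; points are genes, filled where called, black bars list medians, and the grey line and band the median and quartiles of all tested genes. In the left panel the medians are 0.68, 0.28, 1.85 and 0.92 against 0.05 for all tested genes.

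The members varied between libraries of a stage in a shared order. Replicate 3 had the highest level of its stage in 27, 30 and 20 of the 35 members at the undifferentiated, differentiated and dedifferentiated stage, and replicate 1 the lowest in 25, 30 and 21. Over all tested genes replicate 3 was the highest in 38.5%, 33.2% and 34.2%. The median log2 distance of the members from the mean of their stage was -0.23, -0.30 and -0.14 in replicate 1 and 0.18, 0.36 and 0.10 in replicate 3, and for all tested genes it stayed between -0.04 and 0.04 in every library. The median SD of the members on the log2 scale was 0.22, 0.39 and 0.17, against 0.16, 0.14 and 0.15 for all tested genes, so the differentiated stage was the most uneven for the members and not for genes at large. Replicate 3 of each stage came from a second sequencing project, per the labels, and what else set it apart was not tested.

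Each stage had replicates 1 and 2 in the first project and replicate 3 in the second, so the project was balanced over the stages. Within the first project alone, with 6 libraries, 15 members rose and 3 fell in differentiated cells, against 22.3% and 19.7% of all tested genes in that fit. On withdrawal 1 rose and 5 of 35 fell, against 13.1% and 12%, so that the share of members that fell was near that of all genes. The course of rise, fall and no call at the end was then held by 4 members (11.4%, against 7.66% of all tested genes). Between dedifferentiated and undifferentiated cells edgeR then called no member, while 7.61% of all tested genes were called higher and 4.76% lower. At an unadjusted p under 0.05, 2 members were higher and 3 lower. The second project has 1 library a stage and allows no test of its own.

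**Figure D5:**
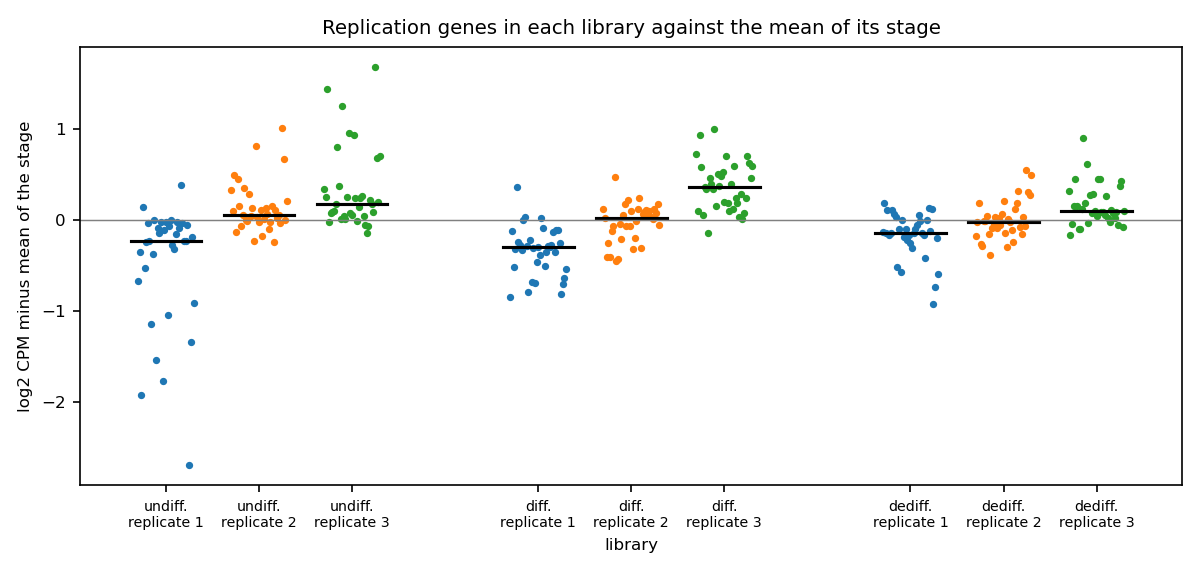
Distance of each of the 35 members from the mean of its stage (y axis, log2 CPM) in each of the 9 cell mRNA libraries; points are genes and black bars medians. In every stage the median is lowest in replicate 1 and highest in replicate 3, from -0.30 to 0.36 in differentiated cells.

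One member also touches the vesicle data of the study. On GRCr8 the genes of miR-25, miR-93 and miR-106b lie inside Mcm7, and their mature forms were counted in extracellular vesicles (EVs, small membrane particles shed into the medium) from the same stages. The sequences follow 5′ to 3′ with the seed, bases 2 to 8, in capitals. miR-93-5p and miR-106b-5p share their seed, and miR-25-3p and miR-106b-3p each have another.
miR-25-3p, chr12:22156652-22156673, minus strand: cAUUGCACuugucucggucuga
miR-93-5p, chr12:22156894-22156916, minus strand: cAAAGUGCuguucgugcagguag
miR-106b-5p, chr12:22157103-22157123, minus strand: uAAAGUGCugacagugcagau
miR-106b-3p, chr12:22157062-22157083, minus strand: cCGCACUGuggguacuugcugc
The EV miRNA libraries were shallow, at 81807 to 474965 counts, and 361 of 965 entries were tested. miR-25-3p stood at 5540, 3850 and 3420 CPM in EVs of undifferentiated, 3890, 2840 and 3350 CPM of differentiated and 4010, 3690 and 3870 CPM of dedifferentiated cells. miR-93-5p stood at 184 ± 35.3, 200 ± 22.9 and 176 ± 60.7 CPM and miR-106b-3p at 647 ± 278, 464 ± 278 and 496 ± 216 CPM (mean ± SD, n = 3), while miR-106b-5p had at most 21 counts in a library and was not tested. Stages overlapped in all 3. edgeR called none of the 3 in any comparison, against 0%, 3.05% and 7.48% of tested entries called in either direction in differentiated against undifferentiated, dedifferentiated against differentiated and dedifferentiated against undifferentiated EVs, and no unadjusted p of the 3 was below 0.315. In cells Mcm7 itself was called only on withdrawal. The log2 change of miR-25-3p in differentiated EVs was -0.23 ± 0.22 (SE, adjusted p = 0.853).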

How the data were processed

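Cell mRNA, EV miRNA and EV lncRNA were sequenced from 9 libraries each, and the EV lncRNA was not used here. The deposited cell table holds estimated counts per gene that the authors made with Salmon, per the file's name and the submitters' processing notes, of which 1.15% are fractional. The deposited EV miRNA table holds whole-number counts, per the file's values. The notes list FastQC, Trim Galore, cutadapt, STAR, HISAT2, SAMtools, Picard, bedtools, Salmon, MultiQC and DESeq2 1.26.0 without roles. The Salmon version, genome build, annotation and strand setting are not given in the sources used here. The labels' protocols name a directional kit.

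Stages and replicate numbers follow the sample titles. The replicate suffixes of the column names differ from the titles for all 9 cell libraries but keep the same sets of same-numbered libraries. Counts were rounded, genes were kept by edgeR's filterByExpr (minimum count 10), and stages were compared with edgeR 4.0.16 (quasi-likelihood test, TMM scaling, all 9 libraries in 1 fit, limma 3.58.1, R 4.3.3). P-values were adjusted by Benjamini-Hochberg over all tested genes with a threshold of 0.05. CPM are counts scaled to the column total, an SE is the log2 change over the square root of F, and intervals are 95%. EV miRNA were tested in the same way in a fit of their own.

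The members, the lists and the tests were chosen with earlier results of these data known. Values in every library are given, per role, for the members with the 2 largest and the smallest absolute change in differentiated against undifferentiated cells and for members that changed against the majority, and the Mcm7 miRNAs were chosen after seeing the data. Same-numbered libraries deviated together between undifferentiated and differentiated cells (correlations 0.30, 0.23 and 0.27). The main fit did not pair libraries by number, and the replicate block is given as an alternative. For the other comparisons the correlations were 0.15, 0.03 and 0.13 (undifferentiated with dedifferentiated) and 0.21, 0.08 and 0.17 (differentiated with dedifferentiated), and the libraries share only a number. Alternatives were a replicate block, the sequencing project as a factor, other scalings, DESeq2 1.42.0, other filters and each library left out. The fit on the first project alone was chosen after seeing the data. Promoter and miRNA sequences are from RefSeq, build GRCr8.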

Additional observations from a re-analysis of the deposited data

How the results depend on the processing

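Precision is limited by 3 libraries a stage and, for the lowest members, by few counts. With the replicate number as a block, 4 members in place of 2 were higher in dedifferentiated than in undifferentiated cells, Mcm5 (1.22, edgeR adjusted p = 0.0312) and Uhrf1 (0.88, 0.0332) being added, and on withdrawal Mcm4 was added to those that fell (-0.34, 0.0498). The block changed no other call of the members beside those of Orc6 and Gins2 given above. Scaled by library size alone, 1 member in place of 2 was lower at the end than at the start. The rise of Gins1 was lost with DESeq2 size factors, and the fall of Rpa2 on withdrawal with library size alone. Both were lost with the DESeq2 Wald test, with no filter and without the 10 most abundant genes. The Wald test also lost the fall of Rrm2, and no filter that of Rfc4. With only the compared stages in the fit, the rises of Gins1 and Mcm4 and the falls of Mcm6, Rfc4 and Tyms were lost. In the first sequencing project alone, 5 members fell on withdrawal and 0 were higher and 0 lower at the end than at the start (at an unadjusted p under 0.05, 2 and 3), and of the other replication genes 5 fell in differentiated cells, 2 rose and 8 fell on withdrawal, and 0 were higher and 1 lower at the end. That fit has fewer libraries.

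With each library left out in turn, members that rose on withdrawal numbered 1 to 2 and members that fell 10 to 24, and those higher or lower at the end than at the start 1 to 2 each. Of the other replication genes 9 to 26 fell on withdrawal, and 2 to 6 were higher and 3 to 8 lower at the end.

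Log2 values that changed sign were of genes not called in that comparison, and the cause was not tested. In differentiated against undifferentiated cells, library size alone gave Mcm6 0.03 and Rrm1 0.01, and the first project gave Rfc2 -0.01. On withdrawal the first project gave Prim1 0.09 and Rrm1 0.13. Between the end and the start it gave Gins2 -0.12, Mcm10 0.20 and Dut -0.05, and Dut was -0.02 with DESeq2 size factors or its Wald test, -0.03 without the 10 most abundant genes and -0.01 with no filter. With single libraries left out, the first comparison ranged from -0.34 to 0.16 for Mcm6, from -0.17 to 0.06 for Rrm1, from -0.04 to 0.46 for Tyms and from -0.19 to 0.29 for miR-93-5p. The withdrawal comparison ranged from -0.15 to 0.26 for Pola1, from -0.16 to 0.09 for Prim1, from -0.23 to 0.12 for Rfc3, from -0.13 to 0.10 for Rrm1, from -0.02 to 0.18 for miR-25-3p and from -0.47 to 0.30 for miR-106b-3p. The end against the start ranged from -0.37 to 1.36 for Cdc6, from -0.33 to 0.56 for Gins2, from -0.80 to 0.66 for Mcm10, from -0.07 to 0.17 for Pold1, from -0.08 to 0.06 for Dut, from -0.01 to 0.70 for Tk1 and from -0.09 to 0.33 for Brca1.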
